A study of Mus musculus with 154 samples.

Results

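The major urinary protein (Mup) genes described here were Mup7, Mup11, Mup12, Mup16, Mup17, Mup18, Mup20 and Mup21. They are 8 of the 13289 genes whose liver read counts were deposited for the mice of 24 strains, and 8 of the 18 protein-coding Mup genes in that table. They were listed by symbol and were chosen by measured values of the same mice, namely their log2 levels over the 24 strains, their spread between mice of a strain and the size of their strain differences. The values below therefore describe them, and no test of a listed gene is offered as evidence about it. Every mouse was listed as male, was 5 weeks old and had been fasted overnight, and the liver RNA of each mouse was sequenced as its own library. The 20 control mice were C57BL/6J (B6). The 63 mice of 8 single chromosome substitution strains (CSSs) carried 1 copy of an A/J chromosome 3, 4, 5, 6, 8, 10, 14 or 17 on a B6 background, with 8 mice in each strain and 7 for chromosome 5. They are named (B6 X B6.A3)F1, (B6.A4 X B6)F1, (B6.A5 X B6)F1, (B6 X B6.A6)F1, (B6.A8 X B6)F1, (B6.A10 X B6)F1, (B6 X B6.A14)F1 and (B6 X B6.A17)F1. The 71 mice of 15 double CSSs, such as (B6.A8 X B6.A14)F1, carried 1 copy of each of a pair of these A/J chromosomes, with 3 to 6 mice in each strain. All substitutions were heterozygous, so the comparisons concern A/J alleles in the presence of the B6 allele, and in males of a single age.

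Major urinary proteins are small lipocalins, barrel-shaped carriers of hydrophobic ligands, that hepatocytes secrete and the kidney passes into the urine. There they bind and slowly release volatile pheromones, and some of the proteins are themselves signals between mice. Their genes lie in a dense array of near-identical copies, are expressed far more in the adult male liver than in the female liver, and are known targets of the pulsatile male pattern of growth hormone and of androgens, which rise around puberty. Mup20 encodes darcin, a male pheromone of the urine, whereas Mup21 is among the most divergent copies.

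The coding sequences show how alike the copies are and where they differ. Each line below gives 60 bases of the coding sequence, 5′ to 3′, from the GENCODE transcript on GRCm38, at bases 211 to 270 of the coding sequence in Mup7, Mup12, Mup16 and Mup17 and at bases 214 to 273 in the other 4 genes. Capitals mark the bases that differ from the commonest base of the 8 genes at that place.
Mup7: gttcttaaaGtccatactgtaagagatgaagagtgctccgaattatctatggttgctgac
Mup11: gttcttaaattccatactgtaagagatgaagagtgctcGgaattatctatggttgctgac
Mup12: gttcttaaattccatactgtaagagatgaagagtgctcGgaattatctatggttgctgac
Mup16: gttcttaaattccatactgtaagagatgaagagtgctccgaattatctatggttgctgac
Mup17: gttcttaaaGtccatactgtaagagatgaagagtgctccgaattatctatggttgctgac
Mup18: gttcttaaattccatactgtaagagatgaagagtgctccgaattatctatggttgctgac
Mup20: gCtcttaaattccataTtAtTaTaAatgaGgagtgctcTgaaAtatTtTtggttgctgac
Mup21: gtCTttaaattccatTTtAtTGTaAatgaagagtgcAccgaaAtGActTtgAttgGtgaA

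Mup16 and Mup18 were identical in this stretch, as were Mup7 and Mup17, and Mup11 and Mup12, whereas Mup20 differed from the commonest sequence at 11 bases and Mup21 at 17. Over the whole coding sequence, Mup7, Mup11, Mup12, Mup16, Mup17 and Mup18 were 98.3% to 99.8% identical to each other, the closest pair being Mup11 and Mup18. Mup20 was 90.1% to 91.3% identical to those 6 genes, and Mup21 83.6% to 84.9%. Reads of these libraries were 50 bases long, so the share of 50-base windows of a gene's exons that occur in no other gene of the annotation is a measure of how well its reads can be told from those of other copies. That share was 8.3% for Mup16, 10.4% for Mup18, 13.3% for Mup7, 14.6% for Mup12, 21.9% for Mup17 and 22.2% for Mup11. It reached 49.5% for Mup20 and 80.7% for Mup21. For Mup18, 77.6% of the windows also occurred in Mup16. How a read that matches several copies was assigned is not given in the sources used here, so the level of each of the 6 alike genes is uncertain on its own, while Mup20 and Mup21 rest more on sequence of their own.

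**Figure D1:**
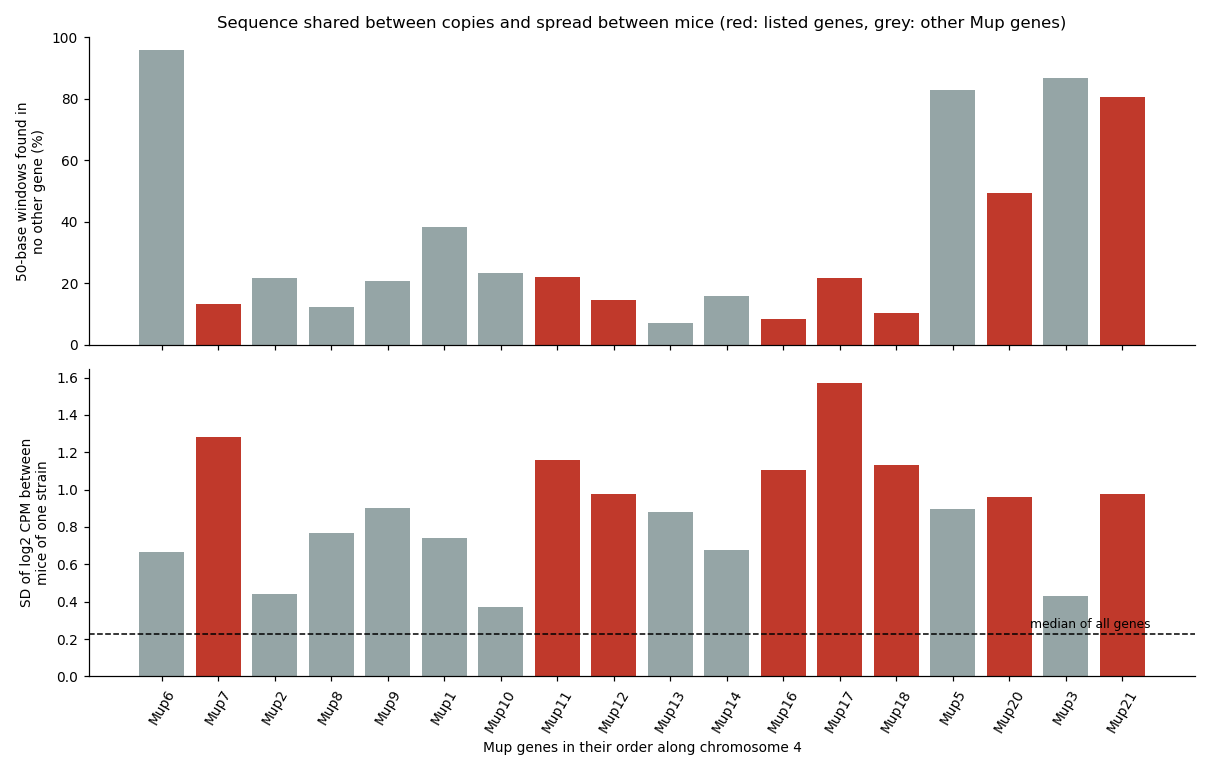
For each of the 18 protein-coding Mup genes in the table, the plot gives the percent of 50-base exon windows found in no other gene and the SD of log2 CPM between mice of a strain, with the median of all genes as a dashed line. Among the listed genes the share of such windows ran from 8.3% to 80.7%. With all mice included, every listed gene had an SD of at least 0.962 log2 CPM, against 0.227 for the median gene.

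The windows before the transcription start are shown for Mup17 and Mup18, the genes with the largest fitted interactions below, and for Mup21, the most divergent listed gene. They are the 250 bases upstream of the RefSeq start in GRCm38.p6, on the minus strand, written in the direction of transcription. Mup17 is at chr4:61595833-61596082, Mup18 at chr4:61674095-61674344 and Mup21 at chr4:62150842-62151091. Capitals mark the letters TATATAA, a run like the core promoter element of that kind, which was searched for after the windows had been read.
Mup17: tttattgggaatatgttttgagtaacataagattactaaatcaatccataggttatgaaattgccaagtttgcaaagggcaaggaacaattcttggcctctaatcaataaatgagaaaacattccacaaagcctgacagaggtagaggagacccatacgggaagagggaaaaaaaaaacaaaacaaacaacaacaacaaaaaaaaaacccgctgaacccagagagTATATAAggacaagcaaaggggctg
Mup18: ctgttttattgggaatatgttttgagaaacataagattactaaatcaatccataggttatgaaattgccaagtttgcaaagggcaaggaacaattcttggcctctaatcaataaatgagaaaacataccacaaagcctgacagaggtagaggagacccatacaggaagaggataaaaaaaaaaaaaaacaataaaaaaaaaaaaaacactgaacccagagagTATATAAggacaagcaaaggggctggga
Mup21: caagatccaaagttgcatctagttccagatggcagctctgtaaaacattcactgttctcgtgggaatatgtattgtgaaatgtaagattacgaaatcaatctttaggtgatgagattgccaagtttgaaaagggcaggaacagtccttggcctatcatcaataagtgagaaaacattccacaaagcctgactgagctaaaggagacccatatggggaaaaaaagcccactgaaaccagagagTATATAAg

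On either strand, TATATAA was present in 3 of the 5 listed genes with a RefSeq window, in 5 of 6 other Mup genes with one, and in 3.3% of 27025 promoter windows of the same length. The listed genes without a match were Mup7 and Mup11, whose windows end before the matching place. That of Mup11 ends in cccagagagta, letters that run on into TATATAA in Mup17. That of Mup7 ends in aatgagaaaaca, which lies upstream of the run in Mup17. The count therefore does not show that Mup7 and Mup11 lack the run. A 9-base and a 10-base pattern, each with free bases in its middle, were also searched for in these windows. The 9-base pattern was in 0 of the 5 listed genes, 0 of the 6 other Mup genes and 7.2% of the 27025 windows. The 10-base pattern was in 2 of the 5, namely Mup7 and Mup11, in 2 of the 6 and in 5.9%. A match describes letters only, and a missing one says nothing about a factor.

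The 8 genes lie on the minus strand of chromosome 4 within a cluster of 48 annotated Mup genes and pseudogenes, at chr4:59956804-62150863, which spans 2.19 Mb of GRCm38 (mm10). In their order along the chromosome, Mup7 (ENSMUSG00000073842) is at 60066469 to 60070475, Mup11 (ENSMUSG00000073834) at 60658466 to 60662411 and Mup12 (ENSMUSG00000094793) at 60737383 to 60741326. Mup16 (ENSMUSG00000078675) follows at 61515592 to 61519531, Mup17 (ENSMUSG00000096688) at 61591929 to 61595871 and Mup18 (ENSMUSG00000078674) at 61670177 to 61674136. Mup20 (ENSMUSG00000078672) is at 62050234 to 62054158 and Mup21 (ENSMUSG00000066153) closes the array at 62147932 to 62150863. The cluster is therefore on a B6 chromosome in every strain except the 4 that carry an A/J chromosome 4.

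Libraries held 4638701 to 30465477 counted reads (median 16116424), of which the 8 genes took 0.015% to 1.22% and the 21 Mup genes and pseudogenes counted 0.219% to 2.28%. No listed gene was at 0 in any mouse, and the smallest count was 3 reads of Mup18. Within strains, the correlation of a listed gene's log2 CPM with the log2 library total lay between -0.12 and -0.04. Hepatocyte markers summed to 46625 to 146470 CPM (read counts scaled by library size) in every liver, and the summed markers of endothelial, Kupffer, stellate and biliary cells each reached at most 513.9 CPM. In bulk liver, a smaller number of cells that express a gene and less RNA per cell cannot be told apart. Mouse 3 of (B6.A4 X B6.A14)F1 was listed as male but had 2.94 CPM of Y-linked genes in sum, against 227.5 to 432.0 CPM in the other mice. This mouse had 20.7 CPM of Mup20, 1.03 CPM of Mup21, 17.1 CPM of Mup7 and 2.78 CPM of Mup12. Its 4 strain mates had 735 to 2118 CPM of Mup20, 62.7 to 130 CPM of Mup21, 583 to 1140 CPM of Mup7 and 106 to 228 CPM of Mup12. No other mouse was lower in Mup20 or Mup21. Strain effects that include this mouse are given with and without it where both were computed. The SD of each gene between mice and the correlations over all mice include it.

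The order of the 8 genes was compared per kilobase of exon, since longer transcripts collect more reads. Mup20, the darcin gene, had the highest mean level, 1745 CPM per kilobase, followed by Mup7 with 624 and Mup11 with 272 CPM per kilobase. Mup21 had 75.5, Mup17 66.9, Mup12 36.7, Mup16 35.9 and Mup18 4.49 CPM per kilobase. The listed genes were thus not the most abundant of the family: Mup3, another copy at the same end of the cluster, had 5288 CPM per kilobase.

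In B6, each of the 8 genes varied widely between mice of the same strain. Mup7 ran from 11.5 to 958 CPM with a median of 277.3, a mean of 357 and an SD of 277.2 (n = 20). Mup11 ran from 17.97 to 1049.9 CPM with a median of 115, and its SD of 269 exceeded its mean of 209 CPM. Mup17 had the largest SD relative to its mean, running from 1.19 to 99.9 CPM around a median of 4.82, with a mean of 14.6 ± 28.1 CPM (SD, n = 20). The Mup17 values were not spread evenly, since 18 of the 20 mice were at or under 16.1 CPM and mice 12 and 20 had 91.9 and 99.9 CPM. Mup20 ran from 330 to 2863 CPM with a mean of 1259 ± 760 (SD, n = 20), and Mup21 from 5.02 to 106 CPM with a mean of 52.3 ± 25.6 (SD, n = 20). Mup12 (12.1 ± 9.10 CPM), Mup16 (15.4 ± 15.6 CPM) and Mup18 (2.04 ± 2.07 CPM; SD, n = 20 each) had SDs close to their means.

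The same B6 mice stood low in many of the genes. Mice 1, 5 and 14 had 11.5, 16.8 and 20.3 CPM of Mup7, whereas each of the other 17 had at least 132.1 CPM. These 3 mice also had 1.81, 2.17 and 2.01 CPM of Mup12 and 1.70, 1.19 and 1.58 CPM of Mup17. Their Mup20 was less extreme, at 890, 434 and 525 CPM. Cyp7b1, an oxysterol hydroxylase expressed more in the male liver, was in these 3 mice at 20.1, 13.4 and 14.4 CPM against a B6 mean of 123 ± 78.4 CPM (SD, n = 20). What sets these mice apart was not tested.

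**Figure D2:**
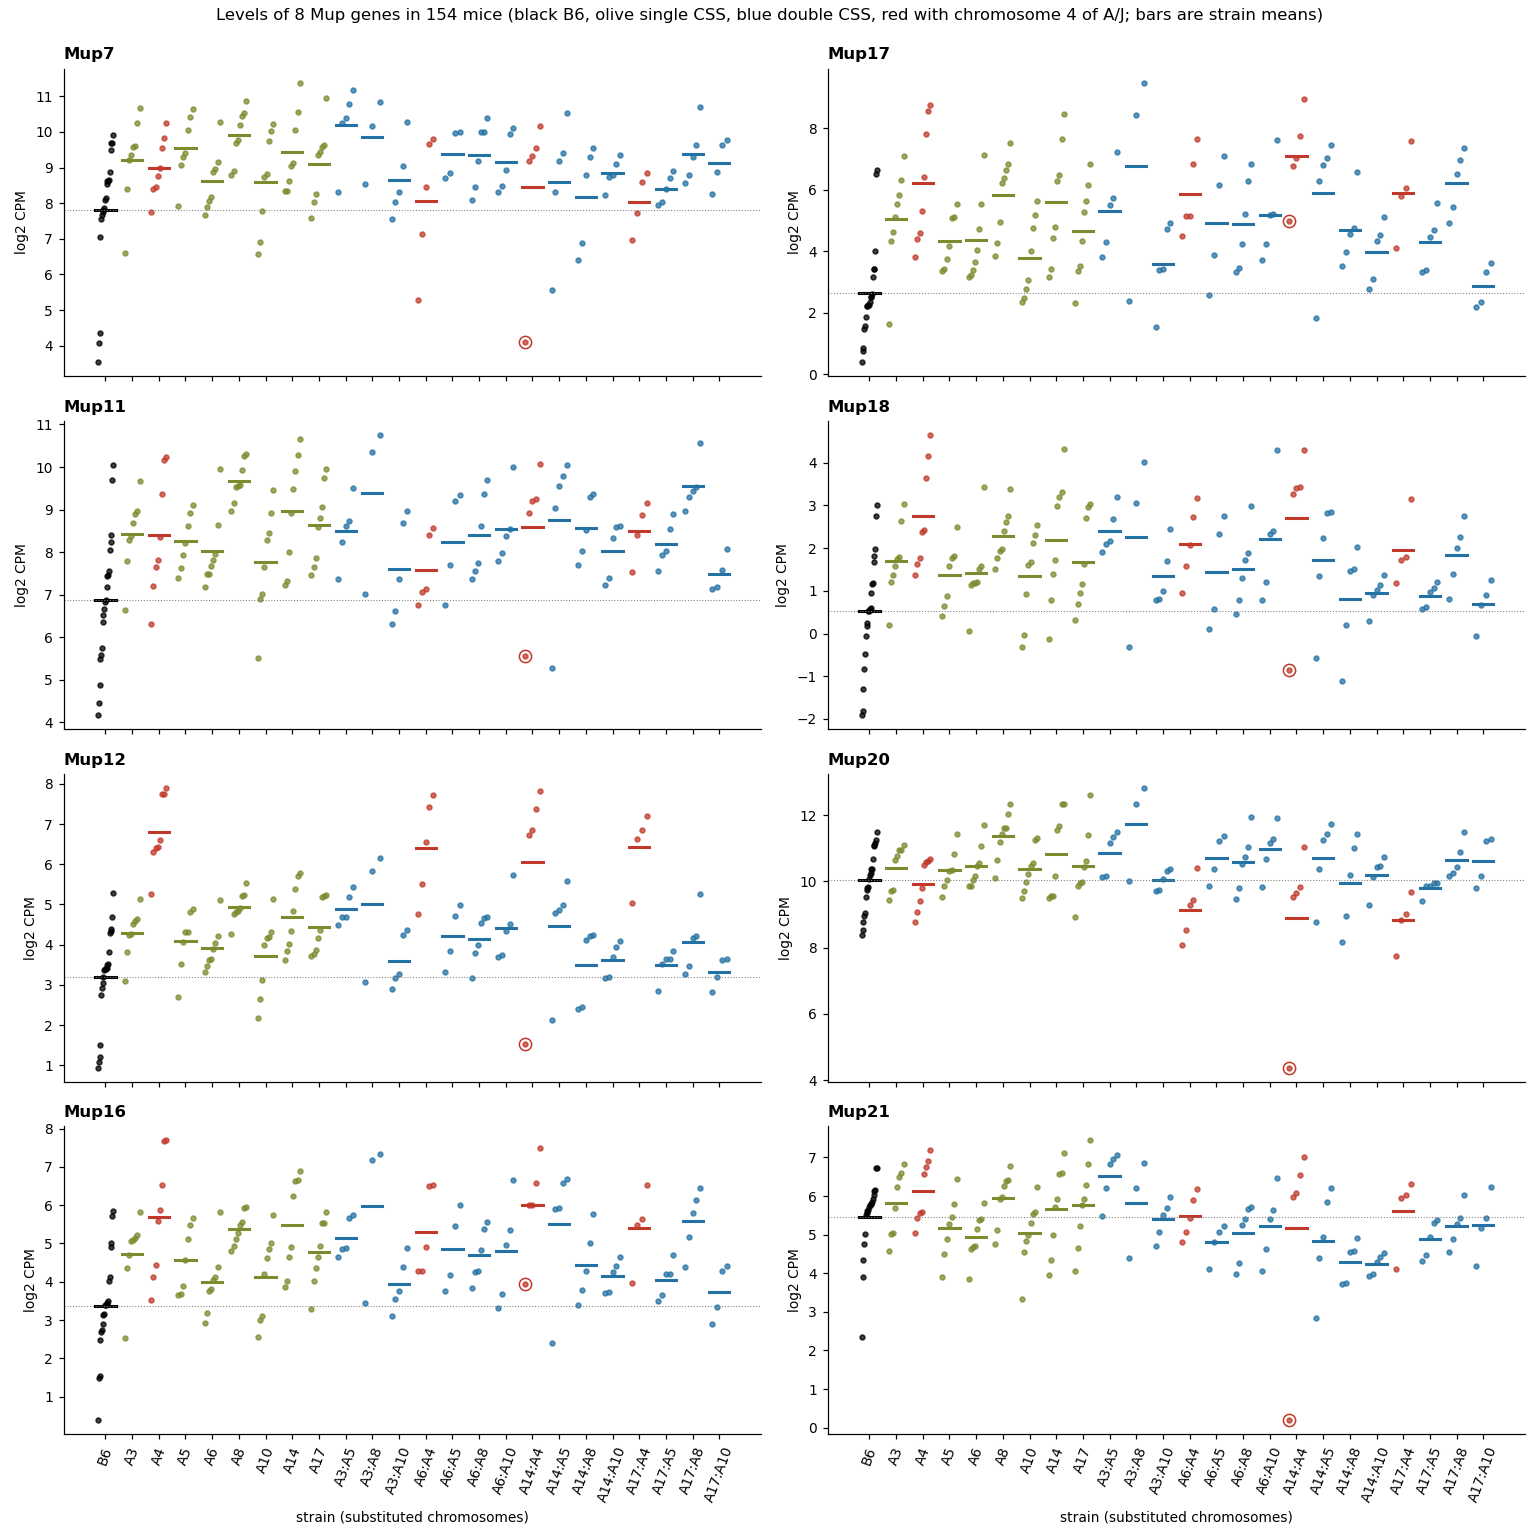
Each panel plots log2 CPM of a listed gene for every mouse (points) in the 24 strains, named by their substituted chromosomes, with bars for strain means, the dotted line for the B6 mean, red for strains with an A/J chromosome 4 and an open ring for mouse 3 of (B6.A4 X B6.A14)F1. B6 is the lowest mean in 6 panels, the points of neighbouring strains overlap in all of them, and the means of the red strains stand above the others for Mup12.

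Across all mice, the SD between mice of the same strain was 1.57 log2 CPM for Mup17, 1.28 for Mup7, 1.16 for Mup11, 1.13 for Mup18 and 1.11 for Mup16. It was 0.976 for Mup21, 0.975 for Mup12 and 0.962 for Mup20. With every mouse included, all 8 stood above the 99.5th percentile of the 13289 genes, whose median SD was 0.227, and Mup17 ranked number 5. These figures are part of what chose the genes. They include mouse 3 of (B6.A4 X B6.A14)F1, the mouse low in Y-linked reads. In its 4 strain mates alone the SD was 0.705 log2 CPM for Mup20, 0.481 for Mup21 and 0.507 for Mup12. The SD of each gene over all strains, and its percentile, were not computed without this mouse. The 10 other protein-coding Mup genes, which were not listed, had SDs of 0.371 to 0.901 (median 0.711), and the smallest belonged to Mup10. The highest and lowest mouse differed 607-fold for Mup17, 233-fold for Mup7 and 95.7-fold for Mup11.

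Between strains, B6 had the lowest mean log2 CPM of all 24 strains for Mup7, Mup11, Mup12, Mup16, Mup17 and Mup18, was number 18 from the top for Mup20 and number 10 for Mup21. Strain means of Mup7 ran from 7.79 in B6 to 10.18 in (B6.A5 X B6.A3)F1, and those of Mup11 from 6.88 in B6 to 9.66 in (B6.A8 X B6)F1. Those of Mup17 ran from 2.65 in B6 to 7.11 in (B6.A4 X B6.A14)F1 (7.64 without its mouse 3), the widest range of the 8 genes. Mup20 ran from 8.82 in (B6.A4 X B6.A17)F1 to 11.73 in (B6.A8 X B6.A3)F1, and Mup21 from 4.23 in (B6.A10 X B6.A14)F1 to 6.51 in (B6.A5 X B6.A3)F1. For 7 of the genes, all 23 gaps between neighbours in the order of strain means were smaller than the SD between mice of a strain. Mup12 had 1 larger gap, of 1.05 log2 CPM, below the 4 strains with an A/J chromosome 4. These gaps describe the order and are not a test between neighbours.

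The A/J copy of the cluster itself was compared on 4 backgrounds: (B6.A4 X B6)F1 against B6, and each double CSS with chromosome 4 against the matching single CSS with chromosome 6, 14 or 17. Mup12 stood out in this comparison. In (B6.A4 X B6)F1 it ran from 38.2 to 239 CPM with a median of 91.7 (n = 8), and in B6 from 1.81 to 38.8 with a median of 10.5. Its 5 values in (B6.A4 X B6.A6)F1 were 27.1, 93.3, 45.8, 172 and 211 CPM, and its 4 in (B6.A4 X B6.A17)F1 were 99.1, 115, 148 and 32.7 CPM. In (B6.A4 X B6.A14)F1 they were 115.6, 228, 2.78, 106 and 167 CPM, the third of these from the mouse low in Y-linked reads. The range of (B6.A4 X B6)F1 overlapped that of B6 only between 38.2 and 38.8 CPM.

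Averaged over the 4 backgrounds in the model, with 5 surrogate variables for hidden variation, the log2 fold change of chromosome 4 was 2.57 ± 0.21 (SE) for Mup12, 1.84 ± 0.38 for Mup17, 1.28 ± 0.27 for Mup16 and 0.98 ± 0.27 for Mup18. Mup20 went the other way, with -0.85 ± 0.24. These 5 of the 8 genes passed a false discovery rate (FDR) of 0.05, where 8.16% of all 13289 genes and 26.8% of the 806 genes on chromosome 4 passed it. Mup7 (-0.25 ± 0.31), Mup11 (0.12 ± 0.28) and Mup21 (0.37 ± 0.23) did not pass. Mup12 passed it on each of the 4 backgrounds, with 3.66 ± 0.31 on B6, 2.76 ± 0.43 on A6, 1.53 ± 0.45 on A14 and 2.34 ± 0.46 on A17. The other genes of the 5 passed at most on the B6 background, where Mup17 was at 3.93 ± 0.55 and Mup20 at -0.03 ± 0.35. On these backgrounds 13.7% (7.71% as higher), 0.369%, 2.51% and 1.16% of all genes passed. Without the mouse low in Y-linked reads, the mean was 2.64 ± 0.20 for Mup12 (1.85 ± 0.43 on A14) and -0.78 ± 0.23 for Mup20, and the same number of genes passed.

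**Figure D3:**
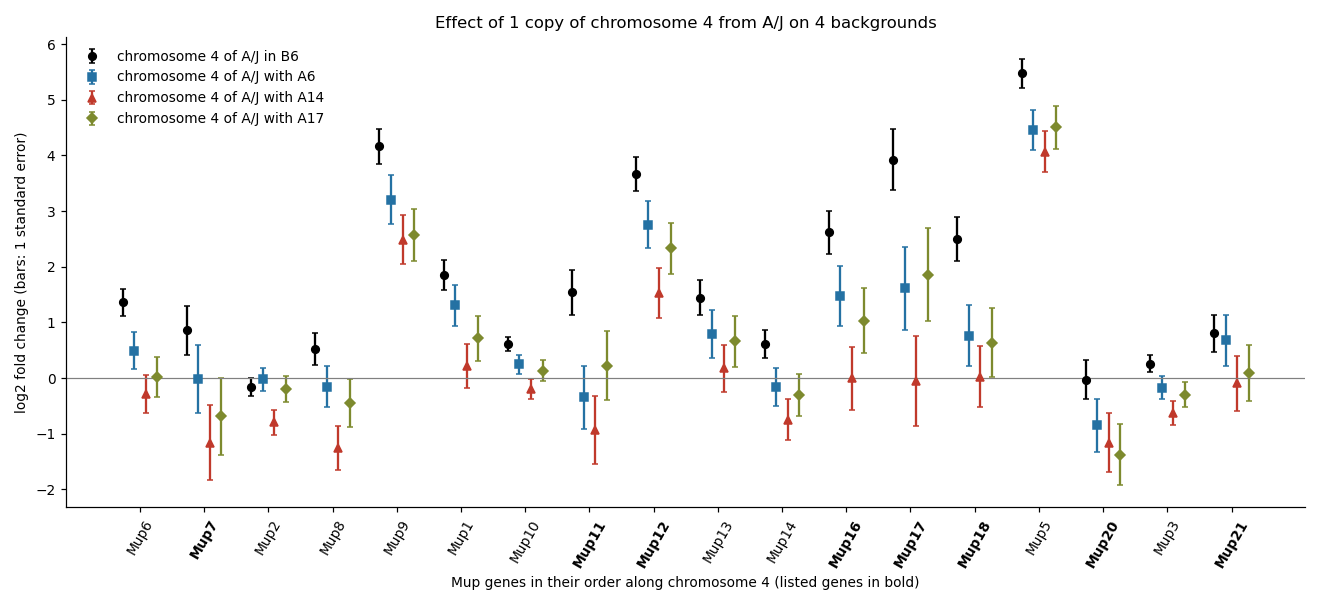
The plot gives the log2 fold change of A/J chromosome 4 (points, with 1 SE) for the 18 protein-coding Mup genes in their order along the cluster, on the B6, A6, A14 and A17 backgrounds. Mup12 is above 0 on all 4 backgrounds, from 1.53 to 3.66, and so is Mup18, from 0.029 on A14 to 2.495 on B6. Among the genes that were not listed, Mup5 and Mup9 are above 0 on all 4 as well.

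Among the Mup genes outside the list, chromosome 4 gave log2 fold changes of 4.62 ± 0.18 (SE) for Mup5, 3.11 ± 0.21 for Mup9, 1.02 ± 0.18 for Mup1 and 0.77 ± 0.21 for Mup13. Mup2 was at -0.29 ± 0.10, and these 5 of 10 passed the same threshold. Mup3, the most abundant copy, was at -0.21 ± 0.10 and Mup10 at 0.20 ± 0.09, and neither passed. The estimates for copies of the array thus had both signs.

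The makeup of the family's RNA showed the same contrast without the surrogate variables. Of all Mup reads, Mup12 took a median of 1.22% in the 22 mice with an A/J chromosome 4 and 0.183% in all others. Apart from the mouse low in Y-linked reads, at 0.139%, these ranges did not overlap, with 0.454% to 2.04% against 0.0545% to 0.372%. Mup17 took 1.12% against 0.225%, and Mup20 7.89% against 15.4%, both with overlapping ranges. Mup3 took 59.5% and 60.5%. The family as a whole had a median of 8599 CPM with the A/J chromosome and 9048 CPM without it, with overlapping ranges. The study mapped reads that did not map to B6 to an A/J sequence made from variant calls. Reads from A/J copies that the B6 annotation lacks are either counted under a B6 copy or not counted. Such a shift or loss of reads and a difference in expression cannot be told apart in these counts.

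Of the 25 other genes in the table within 1 Mb of the cluster, 8 passed the FDR threshold for the mean effect of chromosome 4, 4 of them higher. Of all 806 genes on chromosome 4, 26.8% passed it. Alad, a heme synthesis enzyme, rose by 0.70 ± 0.04 on the log2 scale (SE, adjusted p = 2.87e-30) and Hdhd3 by 0.71 ± 0.08 (adjusted p = 1.26e-14). Gm12909, annotated inside the cluster on the plus strand, was at 0.37 and Gm13773 at -0.39. The median absolute log2 fold change of the 25 neighbours, whether they passed or not, was 0.089.

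Chromosomes 8 and 14 do not carry the cluster, which is on B6 chromosomes in the 2 single CSSs compared with B6 next. In (B6.A8 X B6)F1, Mup17 ran from 14.3 to 185 CPM with a median of 78.2 (n = 8), against a median of 4.82 in B6. Mup11 ran from 500 to 1272 CPM with a median of 759, against a median of 115, and 18 of the 20 B6 mice were below the lowest of these 8. Mup7 ran from 443 to 1872 CPM and Mup20 from 1105 to 5119 CPM. Mup21 had a median of 69.9 CPM against 53.7 in B6. The log2 fold changes were 4.41 ± 0.67 (SE) for Mup17, 3.14 ± 0.47 for Mup11, 2.40 ± 0.46 for Mup16, 2.37 ± 0.46 for Mup18, 2.22 ± 0.37 for Mup12, 2.14 ± 0.49 for Mup7, 1.42 ± 0.36 for Mup20 and 0.68 ± 0.37 for Mup21. All except Mup21 passed the FDR threshold, and 30.3% of all genes did, 13.2% as higher. Without surrogate variables the estimate for Mup17 was 2.63 ± 0.58, and with 10 of them 5 of the 8 genes passed.

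In (B6 X B6.A14)F1 the ranges of Mup17, Mup11 and Mup7 were wider than in (B6.A8 X B6)F1. Mup17 ran from 8.79 to 353 CPM with a median of 53.0 (n = 8), Mup11 from 149 to 1623 CPM with a median of 597.2, and Mup7 from 325 to 2670 CPM with a median of 543. The log2 fold changes were 4.54 ± 0.60 for Mup17, 2.85 ± 0.43 for Mup11, 2.85 ± 0.41 for Mup16, 2.72 ± 0.43 for Mup18, 2.07 ± 0.34 for Mup12 and 2.06 ± 0.47 for Mup7. Mup20 was at 1.30 ± 0.35 and Mup21 at 0.65 ± 0.36, and again all except Mup21 passed, as did 23.2% of all genes, 10.3% as higher. Without surrogate variables the estimate for Mup17 was 2.97 ± 0.58. Both effects were estimated against the same 20 B6 mice.

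With each of the remaining chromosomes outside the cluster fewer of the listed genes passed. For chromosome 10, Mup11, Mup12, Mup16, Mup17 and Mup18 passed the threshold, at 1.17 to 2.19 on the log2 scale, where 6.62% of all genes passed and 3.67% as higher. Without surrogate variables none of the 8 passed for chromosome 10, and these 5 estimates were 0.46 to 0.74, Mup17 going from 2.19 to 0.61. With 10 surrogate variables 6 of the 8 passed for chromosome 10. For chromosome 3, Mup11, Mup12, Mup16 and Mup17 passed, at 1.09 to 2.42, where 3.69% of all genes passed and 1.93% as higher. For chromosome 3, none passed without surrogate variables and 1 did with 10 of them. For chromosomes 5, 6 and 17 none of the 8 passed with 5 surrogate variables in edgeR's quasi-likelihood test or in DESeq2, where 0.768%, 8.41% and 3.79% of all genes did in edgeR. Without surrogate variables Mup11 (1.20) and Mup12 (1.02) passed for chromosome 17. In edgeR, 10 of these 24 values had an unadjusted p under 0.05 with 5 surrogate variables. Over all 8 chromosomes, 28 of 64 values passed, every one of them higher than B6, where 11.3% of the values of all genes passed, and 61 of the 64 were above 0. The estimates share the B6 mice, including the low mice 1, 5 and 14, and are not independent of each other. For the 10 other protein-coding Mup genes, 39 of 80 values passed, all higher.

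**Figure D4:**
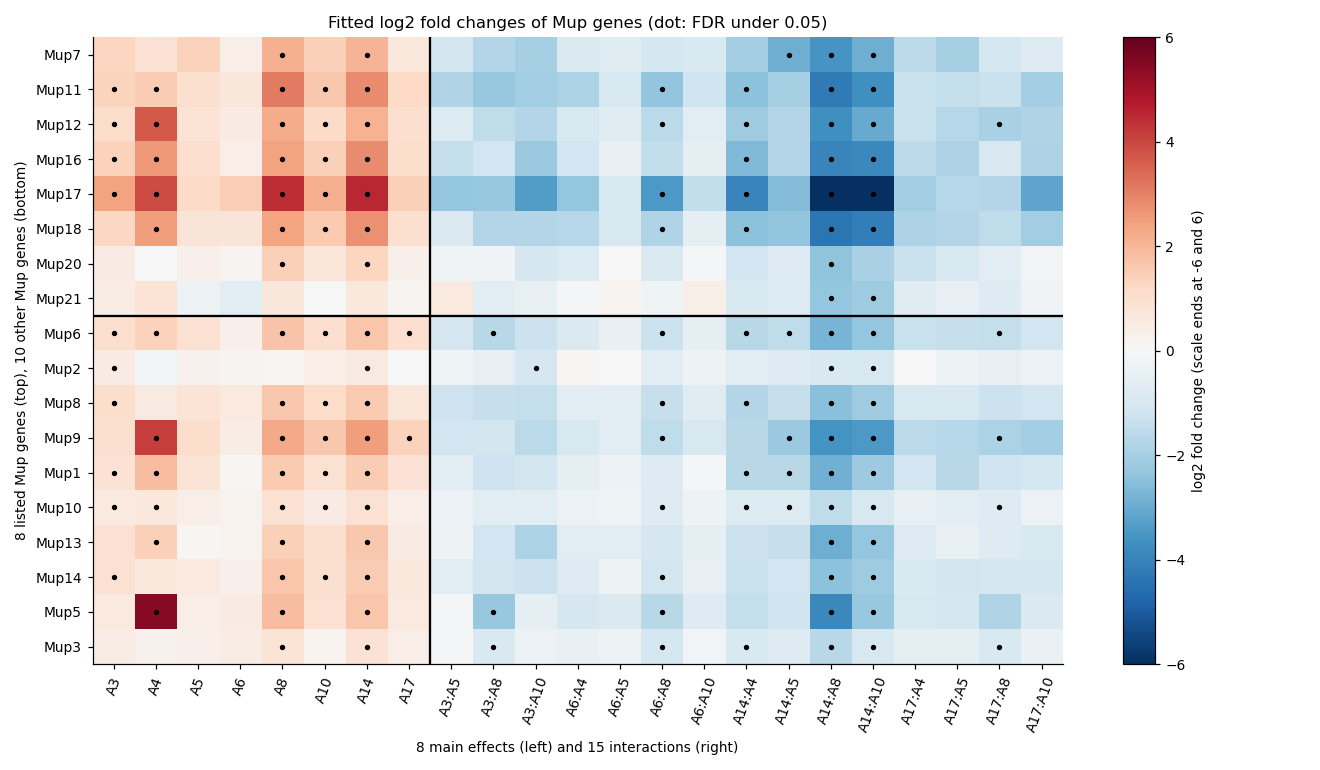
The heat map gives the log2 fold change of each of the 18 protein-coding Mup genes (rows) for the 8 chromosome substitutions and the 15 interactions (columns), with a dot where the FDR was under 0.05. Substitutions are mostly above 0 and interactions mostly below it, with the deepest values for Mup17, down to -6.58 for A14 and A8.

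The double CSSs were next compared with the sum of their single substitutions. With chromosomes 8 and 14 together, the 5 mice of (B6.A8 X B6.A14)F1 had 27.1, 11.3, 96.5, 23.4 and 15.6 CPM of Mup17. Their Mup11 was at 260, 206, 632, 656 and 365.7 CPM and their Mup7 at 84.7, 118, 440, 755 and 625.3 CPM. These values lay inside the range of B6 for Mup17, Mup11 and Mup7. Their medians, 23.4 CPM of Mup17, 365.7 CPM of Mup11 and 440 CPM of Mup7, were below those of both single CSSs. The 5 values of Mup20 were 289, 491, 1165, 2781 and 2038 CPM, and those of Mup21 were 13.01, 13.2, 23.2, 30.2 and 23.7 CPM. Every one of these Mup21 values was below the B6 median of 53.7 CPM.

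In mean log2 CPM, Mup17 was at 2.65 in B6, 5.59 in (B6 X B6.A14)F1 and 5.84 in (B6.A8 X B6)F1. Adding both differences to B6 gives 8.77, and the double CSS was at 4.68, which is 4.09 lower. For the other 7 genes the double CSS was lower than the sum by 1.84 (Mup21) to 3.36 (Mup7). The interaction in the model, which also takes up the surrogate variables, was -6.58 ± 1.17 (SE) on the log2 scale for Mup17, -4.37 ± 0.78 for Mup18, -4.24 ± 0.81 for Mup11, -3.98 ± 0.77 for Mup16, -3.67 ± 0.62 for Mup12, -3.54 ± 0.84 for Mup7, -2.42 ± 0.62 for Mup20 and -2.31 ± 0.63 for Mup21. All 8 passed the threshold as lower, where 32.8% of all genes passed and 14.5% as lower. Without surrogate variables all 8 passed and the estimate for Mup17 was -4.15 ± 1.10, and with 10 of them 6 passed. Compared with B6 directly, Mup11 (1.75 ± 0.46) and Mup17 (2.38 ± 0.65) were higher in the double CSS past the threshold, and the other 6 did not pass, where 4.82% of all genes did, 2.61% as higher. Without surrogate variables none of the 8 passed in that comparison, with Mup11 at 1.03 and Mup17 at 1.44. Mup21 had the estimate -0.98 ± 0.45 with 5 surrogate variables.

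Chromosome 14 was also in the other crosses where most of the genes had an interaction. With chromosome 10, 7 of the 8 passed, from -2.11 ± 0.66 (SE) for Mup21 to -6.01 ± 1.13 for Mup17, and Mup20 (-1.95 ± 0.64) did not, where 4.33% of all genes passed and 1.8% as lower. This count was 2 without surrogate variables and 0 with 10 of them, where edgeR gave all 8 an unadjusted p under 0.05. With chromosome 4, Mup11, Mup12, Mup16, Mup17 and Mup18 passed, at -2.13 to -3.98, where 4.97% of all genes passed and 2.17% as lower. None of the 8 passed with 0 or with 10 surrogate variables, and Mup17 was at -2.59 with 0. Without the mouse low in Y-linked reads, none of the 5 passed in edgeR, although 5 of the 8 had an unadjusted p under 0.05: Mup17 was at -3.76 ± 1.16 and Mup12 at -1.86 ± 0.57. Without mouse 5 of that strain 1 of the 8 passed, and without mouse 4 of it 3 did. With chromosome 5, Mup7 passed at -2.91 ± 0.84, where 4.18% of all genes passed and 1.62% as lower. None of the 8 passed there with 0 or with 10 surrogate variables, or when mouse 1 or mouse 2 of (B6.A5 X B6.A14)F1 was left out, and 4 did without mouse 3.

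Of the crosses without chromosome 14, the interaction of chromosomes 6 and 8 passed for Mup11 (-2.39 ± 0.72, SE), Mup12 (-1.62 ± 0.56), Mup17 (-3.42 ± 1.001) and Mup18 (-1.82 ± 0.70), where 25.1% of all genes passed and 11.5% as lower. None of the 8 passed for this pair with 0 or with 10 surrogate variables, and Mup17 was at -2.19 with 0. That of chromosomes 17 and 8 passed for Mup12 alone (-1.93 ± 0.60), where 9.01% of all genes passed and 3.88% as lower. That call was lost with 10 surrogate variables, with a filter of 15 counts in 75% of mice, and without mouse 3 or mouse 4 of the double CSS. In the other 9 crosses none of the 8 passed in edgeR's test, 28 of the 72 values had an unadjusted p under 0.05, and DESeq2's Wald test passed 2. Over the 15 crosses, 26 of 120 interactions passed, all of them lower, where 6.1% of all values passed, and 4 of the 120 were above 0. On mean log2 CPM without any model, 113 of the 120 double CSS values were below the sum of the single differences, whereas in each cross between 47.5% and 52.4% of all genes were below it. All 15 sums are formed with the same 20 B6 mice, whose low means for 6 of the genes enter every one of them.

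The 8 genes varied together between mice of a strain. After subtracting strain means, the correlation of log2 CPM over all mice was 0.519 to 0.923 for the 28 pairs (median 0.751), and in the 20 B6 mice alone 0.383 to 0.951 (median 0.799). Mup11, Mup16, Mup17 and Mup18 were correlated with each other at 0.834 to 0.923. Mup20 and Mup21, at opposite sides of Mup3 in the array and with 0% of Mup21's windows shared with Mup20, were correlated at 0.790. The lowest value, 0.519, was that of Mup17 and Mup21. Over the 24 strain means the same pairs ran from -0.371 to 0.974. These points share libraries, and the alike genes share sequence, whose part in the correlations was not tested.

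**Figure D5:**
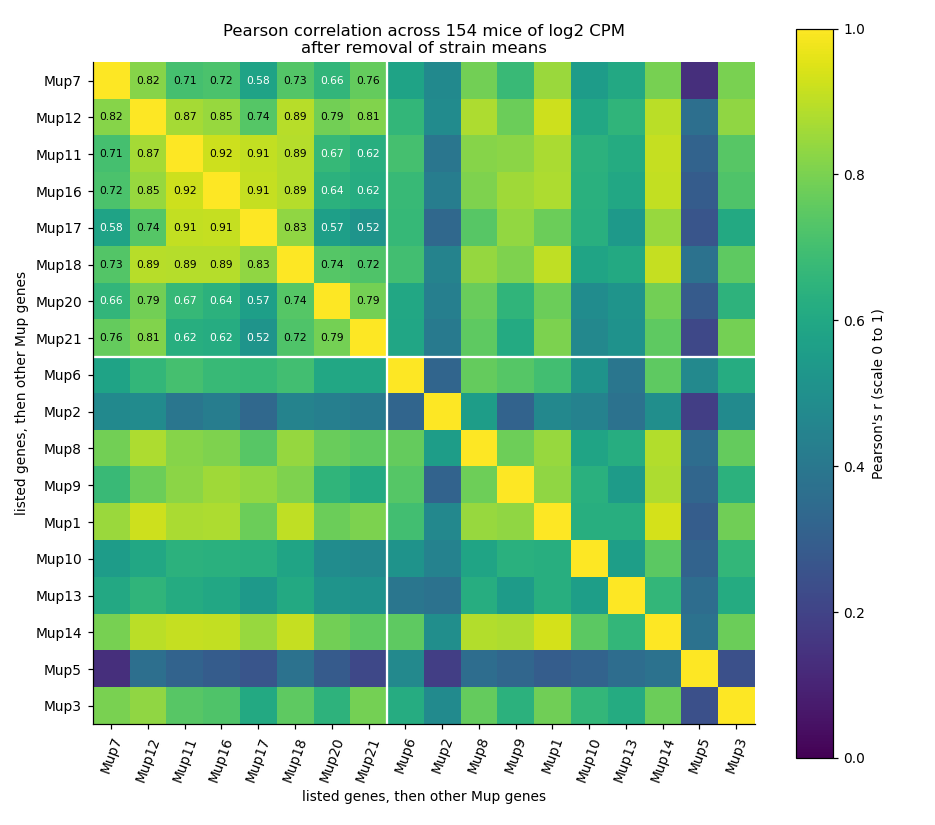
The heat map gives the Pearson correlation between pairs of the 18 protein-coding Mup genes over all mice, computed on log2 CPM after subtracting each strain's mean. Listed genes correlate at 0.519 or more with each other, whereas Mup5 stays between 0.134 and 0.378 with them.

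Among the 9609 genes at a mean of at least 2 log2 CPM that are not listed, the pattern most like the 8 was that of Mup14, with a mean correlation of 0.852 over all mice, and that of Mup1, with 0.847. Gm13773, a noncoding gene annotated inside the cluster, followed with 0.774, then Mup9 with 0.756 and Mup3 with 0.737. Toward the other end stood Lpl, the lipoprotein lipase that splits circulating triglycerides, with -0.556, and the glucuronosyltransferase Ugt1a5 with -0.554. For comparison, the median of these genes was 0.001, with the 5th and the 95th percentile at -0.269 and 0.312. Outside the cluster, and chosen after the values were seen, the leading genes were Cyp7b1 with 0.724 and the complement genes C6 with 0.718 and C9 with 0.716.

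Because Mup genes are known for their bias to the male liver, lists of other genes with a known sex bias were followed beside them. The mean correlation with the 8 genes had a median of 0.613 over 18 male-biased genes, 17 of them above 0, with Bcl6 the exception at -0.029. Over the 14 female-biased genes in the table, of 20 in the list, the median was -0.351 and none was above 0. For 19 genes of growth hormone signalling the median was -0.029, with the growth hormone receptor Ghr highest at 0.512. For 6 other lipocalins of the liver it was -0.030. All these genes are described in the same libraries as the Mup genes. The correlations include mouse 3 of (B6.A4 X B6.A14)F1, the mouse low in Y-linked reads. That mouse was the lowest of all mice in most of the male-biased genes and the highest in most of the female-biased genes. Socs2, a male-biased gene, was higher in it than the B6 mean, at 16.3 against 11.6 CPM. The medians were not computed without this mouse, and its part in them was not tested.

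With chromosome 8, 8 of the 18 male-biased genes rose, where 13.2% of all genes did, and none fell in edgeR's test, with a median log2 fold change of 0.65, while the median of all genes was -0.01. The largest were Elovl3, an elongase of fatty acids, at 1.89 ± 0.38 (SE), Selenbp2 at 1.21, the organic anion transporter Slco1a1 at 0.97 and Cyp7b1 at 0.93. Of the 14 female-biased genes 10 fell, where 17.1% of all genes did, and 1 rose, with a median of -0.79. The cytochromes P450 Cyp2a4 and Cyp2b9 were at -3.38 and -3.33, and Cux2, a transcription factor of the female liver, at -1.76. With chromosome 14, 9 male-biased genes rose and 0 fell, and 6 female-biased genes fell and 0 rose, where 10.3% of all genes were higher and 12.9% lower. With 0 surrogate variables 4 male-biased genes rose with chromosome 8 and 2 with chromosome 14, and with 10 of them 2 and 1, beside 1 that fell with chromosome 14. With 0 surrogate variables 10 female-biased genes fell with chromosome 8 and 6 with chromosome 14, and with 10 of them 6 and 1. Over all 8 substitutions, each tested for the 18 and the 14 genes, the male-biased list had 36 values past the threshold and the female-biased list 33. Of the values of all genes for these substitutions, 11.3% passed. With 10 surrogate variables the lists had 9 and 14.

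In the interaction of chromosomes 14 and 8 the directions were the opposite, where 14.5% of all genes were lower and 18.4% higher past the threshold. Of the 18 male-biased genes 9 fell and 0 rose, led by Elovl3 at -3.63, Selenbp2 at -2.09, Slco1a1 at -2.07 and Serpina12 at -2.05. Of the 14 female-biased genes 11 rose and 0 fell, among them Cyp2b9 at 4.41, Cyp2a4 at 4.01 and Cux2 at 2.75. The medians were -1.08 and 1.40, and that of all genes was 0.02. With 0 surrogate variables 5 male-biased genes fell and 10 female-biased genes rose, and with 10 of them 5 male-biased genes fell and 1 rose, and 3 female-biased genes rose. The interaction and the single effects share the B6 and single CSS mice. The median of the 8 Mup genes was -3.83.

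Genes of growth hormone signalling passed in both directions. With chromosome 8, 3 of the 19 genes rose and 6 fell, among them the binding proteins Igfbp1 at -1.41 and Igfbp2 at -0.67 and the signalling factors Stat3 at -0.58 and Cebpb at -0.46. In the interaction of chromosomes 14 and 8, 6 rose and 3 fell. Of all genes, 30.3% and 32.8% passed in these 2 comparisons. Of the 6 other lipocalins, Lcn2, an acute-phase protein, Apom and Ambp fell with chromosome 8, at -2.23, -0.45 and -0.26, and none of the 6 rose past the threshold.

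Where the cluster itself was substituted, the sex-biased lists were counted on each background. In (B6.A4 X B6)F1 against B6, 8 of 18 male-biased genes rose and 0 fell, and 5 of 14 female-biased genes fell and 1 rose, where 7.71% of all genes were higher and 6.0% lower. With 0 surrogate variables 5 male-biased genes rose and 4 female-biased genes fell, and with 10 of them 0 and 0 did in edgeR, with 7 and 6 at an unadjusted p under 0.05. Without mouse 3 of (B6.A4 X B6.A14)F1 12 male-biased genes rose and 6 female-biased genes fell. On the A14 background 6 female-biased genes rose, where 2.51% of all genes passed, and without that mouse 0 did in edgeR, with 2 at an unadjusted p under 0.05. On the A6 and A17 backgrounds 0 and 1 of the female-biased genes passed, and no male-biased gene passed in edgeR on A6, A14 or A17, where 1, 5 and 1 of them had an unadjusted p under 0.05. For the mean effect of chromosome 4, 1 of 18 male-biased genes rose (Gstp1, at 0.45) and 0 fell, and 2 of 14 female-biased genes rose and 1 fell, where 4.43% of all genes were higher and 3.73% lower. Without mouse 3 of (B6.A4 X B6.A14)F1, 1 female-biased gene rose and 3 fell, and 2 male-biased genes rose. The mouse low in Y-linked reads had 320 CPM of Cyp2b9 and 389 CPM of Cyp2a4, the highest of all mice in each, beside its low Mup levels, whereas its share of Mup reads taken by Mup10 was 30.2%.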

How the data were processed

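The authors deposited whole-number read counts per gene for 24 strains' liver libraries (1 per mouse, stranded total RNA, 50-base single reads). Per the study's methods and the submitters' processing notes, reads were aligned with TopHat2 to mm10 and then, where unmapped, to an A/J sequence, duplicates were removed, and HTSeq counted GENCODE vM7 genes. The handling of reads that match several copies is not given in the sources used here. Strains came from the labels, symbols and positions from GENCODE vM21 for 13242 of 13289 genes. Counts were scaled by TMM and fitted over all genes with edgeR 4.0.16 (R 4.3.3), using its quasi-likelihood test with 8 substitutions, 15 interactions and 5 surrogate variables (sva 3.50.0). P-values were adjusted by Benjamini-Hochberg per effect, separately in cis and in trans (genes on and off the substituted chromosomes), with calls at FDR 0.05. Log2 CPM used a prior count of 2. DESeq2 1.42.0 was an alternative. The fit was tested on simulated data. The members and lists were chosen with earlier results of these data known. Named genes were the 8 Mup members, the 5 most and 3 least like them, genes within 1 Mb of the cluster, and up to 4 called genes of a list with the largest change. Other Mup genes, the likest genes outside the cluster and the genes shown for single mice were named after their values were seen. Replicate mice are separate animals numbered in accession order. Body weight was not used here. Mup4, Mup15, Mup19 and Mup22 were not analysed here. The values of 1 gene that the rule for named genes selects are not reported here.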

Additional observations from a re-analysis of the deposited data

Results flagged for a closer look

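In each strain of 4 to 10 mice, the gap between the most extreme mouse and its nearest strain mate was set against Dixon's 95% critical value. A mouse was past it in 14 combinations of strain and gene, where about 8.8 are expected by chance at 1 in 20.

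Mouse 3 of (B6.A4 X B6.A14)F1, the mouse low in Y-linked reads, accounted for 6 of the 14. Its log2 CPM was 4.11 for Mup7 (strain mates 9.19 to 10.16), 5.56 for Mup11 (8.92 to 10.07), 1.54 for Mup12 (6.73 to 7.83), -0.86 for Mup18 (3.27 to 4.31), 4.38 for Mup20 (9.52 to 11.05) and 0.20 for Mup21 (5.97 to 7.02).

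Mouse 1 of (B6.A5 X B6.A14)F1 was the low mouse in 4 more, with log2 CPM of 5.28 for Mup11 (strain mates 9.05 to 10.05), 2.13 for Mup12 (4.80 to 5.57), 2.41 for Mup16 (5.89 to 6.68) and 1.83 for Mup17 (6.29 to 7.46). The remaining 4 were spread over as many strains. Mup16 was low, at 2.52, in mouse 6 of (B6 X B6.A3)F1 (strain mates 4.35 to 5.82), and Mup18 was high, at 3.42, in mouse 3 of (B6 X B6.A6)F1 (0.07 to 1.59). Mup20 was low, at 9.42, in mouse 4 of (B6.A5 X B6.A17)F1 (9.84 to 9.95), and Mup21, at 4.10, in mouse 4 of (B6.A4 X B6.A17)F1 (5.95 to 6.32).

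By the interaction term of the model, at least 1 of the 8 genes passed the FDR threshold in 6 crosses. The number of the 8 genes past it was 8 for chromosomes 14 and 8, 7 for 14 and 10, 5 for 14 and 4, 4 for 6 and 8, 1 for 14 and 5 (Mup7) and 1 for 17 and 8 (Mup12). Of all genes, 32.8%, 4.33%, 4.97%, 25.1%, 4.18% and 9.01% passed in these crosses, in the same order. Without surrogate variables none of the 8 passed for 14 and 4, 6 and 8, or 14 and 5. With 10 of them only the cross of 14 and 8 had calls.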

How the results depend on the processing

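No paired analysis was possible because the replicate numbers only name mice in accession order and no label ties a mouse of one strain to a mouse of another. The number of surrogate variables mattered most. Over the 15 interactions, 26 of 120 values of the listed genes passed the threshold with 5 surrogate variables, 11 with 0 and 6 with 10. All called values were lower under each of these settings. Over the 8 substitutions, the male-biased list of 18 genes had 36 calls, 19 with 0 and 9 with 10 surrogate variables. The female-biased list, with 14 genes tested, had 33 and 14 with 10. With 5 surrogate variables 11.3% of the values of all genes passed for these substitutions. The median SD between mice of the 8 genes was 1.12 log2 CPM over all strains and 1.36 in the B6 mice alone. With 10 surrogate variables, Mup18 (1.47) and Mup20 (0.71) no longer passed for chromosome 8, nor Mup20 (-0.64) and Mup21 (-1.06) for the interaction of chromosomes 14 and 8. Why the counts moved was not tested. The other settings, which were DESeq2's Wald test, DESeq2 size factors, adjustment over all genes, a filter of 15 counts in 75% of mice and the fit without the mouse low in Y-linked reads, left the counts of interactions between 20 and 30, those of the single substitutions between 29 and 30 (21 with 0 and 22 with 10 surrogate variables), and the 5 calls of chromosome 4 at 5. No called substitution effect changed its sign under any setting.

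Leaving out each of the 65 mice of the double CSSs with 3 to 5 mice in turn gave 22 to 29 calls over the 15 interactions, 8 to 8 in the joint test of all strains, and a median SD of 1.09 to 1.12 log2 CPM. With every mouse kept, 51.7% of all 13289 genes passed that joint test. For chromosome 4, leaving out each of 14 mice gave 5 calls throughout. The interaction of chromosomes 14 and 8 kept 8 calls without any of its 5 mice, and that of 14 and 10 had 5 to 7. That of 14 and 4 had 1 (without mouse 5) to 6 (without mouse 2), with 2 without mouse 3 when the surrogate variables were kept and 0 when they were estimated again. That of 14 and 5 had 0 (without mouse 1 or 2) to 4 (without mouse 3). Leaving out mice of B6 and of the single CSSs was planned and not run. The 3 to 8 mice in a substituted strain and SDs near 1 log2 CPM limit the precision of each estimate.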
